A study of Mus musculus with 3 samples.

Results

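Smooth muscle contractile genes, 10 of the 47725 genes in the deposited tables, are described here: Acta2, Actg2, Acta1, Tagln, Cnn1, Myh11, Myl9, Tpm2, Lmod1 and Des. They were chosen by symbol, with their FPKM ratios of BM to WT and BEM to WT already known, so those ratios are a description. RNA was sequenced from 3 mouse cultures with 1 library each. The WT culture came from a wild type embryonic stem cell line, BM from a line mutant for Barhl1, a homeobox gene of hair cells, and BEM from a line in which the E3 E-box site, a short motif for basic helix-loop-helix factors, was mutant. In each case the stem cells had been turned into otic progenitors, which then grew for 9 days on inactivated stromal cells of chicken utricle. The medium of all 3 held retinoic acid (1 µM) and the growth factor EGF (25 ng/ml), and the labels call the product hair cell-like cells. The sources used here do not say what the Barhl1 mutation is or whether a line is 1 clone. Neither do they say how reads from the chicken cells were treated, and the part of such reads in the values was not tested.

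In smooth muscle, bundles of actin slide along filaments of a dedicated myosin, and dense bodies and intermediate filaments anchor them. Phosphorylation of the myosin regulatory light chain starts contraction, while calponin, tropomyosin and other proteins on the thin filament tune it. Most of these genes are switched on together by the serum response factor SRF with its co-activator myocardin or the related MRTF proteins, through a DNA element called the CArG box. Acta2 and Tagln are also switched on in myofibroblasts and in many cultured fibroblasts, so their transcripts alone do not name a cell type.

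Of the 10 genes, 9 were higher in both mutant cultures than in WT, by 5.75-fold to 988-fold in BM, and Des was slightly lower. Levels are in FPKM, reads scaled by gene length and library total, which allows genes to be compared with each other. The summed level of the 10 genes was 128.9 FPKM in WT against 4232 FPKM in BM and 4281 FPKM in BEM, or 0.0422%, 1.39% and 1.40% of all FPKM of the library. Acta2 alone made up 60.9% of the sum in BM and 60.2% in BEM, but 28.7% in WT. In a bulk culture, more cells of a type and more RNA per cell cannot be told apart.

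The libraries held 21555823 reads (WT), 20111794 reads (BM) and 23813123 reads (BEM), as recovered from the FPKM, and the 10 genes held 6100, 150092 and 179626 of them. Ratios carry a 95% interval from these reads (exact, Clopper-Pearson), which covers counting error only. With 1 library per line there was no replicate check and no test of any difference. BM and BEM were close to each other over the transcriptome, with a median absolute log2 ratio of 0.0606 over all measured genes, while WT stood apart from both, at 0.516 from BM and 0.525 from BEM. The labels do not say whether BM and BEM were cultured and prepared apart from each other, so their likeness is not read as a replicate. Line, culture and library cannot be told apart. Barhl1 itself was at 126.5 FPKM in the WT library, 95.1 FPKM in BM and 0.0107 FPKM in BEM. These values gave no whole reads and so have no interval, and with the kind of mutation unknown the BM value does not check the label.

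**Figure D1:**
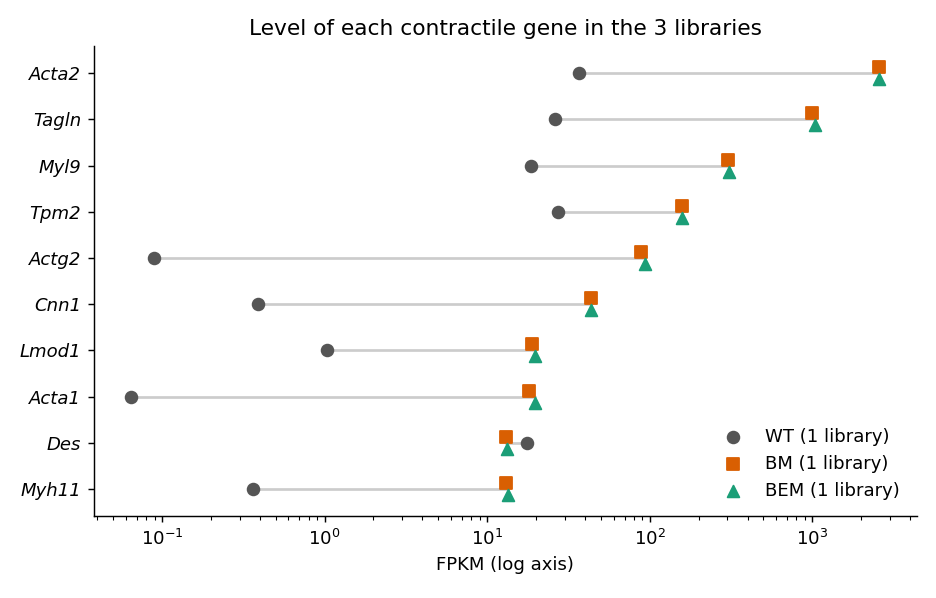
Level of each of the 10 contractile genes in FPKM (log axis), with 1 point for the 1 library of each culture. The BM and BEM points lie together for every gene and stand right of the WT point for all but Des, where WT is at 17.7 FPKM and BM at 13.1 FPKM.

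Because SRF acts through the CArG box, the promoters of 7 of the 10 genes, 250 bases before the RefSeq start in GRCm38.p6, were searched for it. Actg2, Tagln and Myh11 had no entry among the promoter sequences used and were not searched. A strict box has A or T at each inner place. A CArG-like element, a form searched for after the sequences were seen, has G or C at 1 inner place. Either form reads as itself on the other strand, and the sites found did not overlap each other. A strict box was found in 2 of the 7, in Acta1 as CCAAATATGG from 73 to 64 bases before the start and in Myl9 as CCTAATAAGG from 161 to 152 bases before it. It occurs in 1.47% of all 32851 promoter windows of that length. Acta2 had 2 CArG-like elements, CCCTATATGG from 84 to 75 and CCTTGTTTGG from 34 to 25 bases before the start. Acta1 also had 2 and Myl9 had 1, and 7.24% of all windows have at least 1. Cnn1, Tpm2, Lmod1 and Des had neither form in this window. For Acta2 and Tpm2 most of the window lies inside the gene bounds given below, which reach 34255590 and 43523765. Positions and absences therefore hold for the RefSeq start only. The letters CATTCC on either strand, the core of the MCAT element bound by TEAD factors, were found in Acta2, Acta1 and Lmod1 and in 12.6% of all windows, apart from any CArG form. A match describes the sequence and does not show binding. Shown 5′ to 3′ on the gene's own strand, with both CArG forms in capitals, are the 3 windows that hold one, of Acta2 (chr19:34255374-34255623, minus strand), Acta1 (chr8:123894776-123895025, minus strand) and Myl9 (chr2:156775214-156775463, plus strand), and that of Des (chr1:75360042-75360291, plus strand), the gene that was not higher.
Acta2: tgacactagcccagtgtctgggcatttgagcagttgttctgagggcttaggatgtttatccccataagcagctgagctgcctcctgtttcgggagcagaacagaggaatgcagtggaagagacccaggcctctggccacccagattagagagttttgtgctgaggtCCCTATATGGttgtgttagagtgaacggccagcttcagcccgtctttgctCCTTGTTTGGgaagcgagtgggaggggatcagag
Acta1: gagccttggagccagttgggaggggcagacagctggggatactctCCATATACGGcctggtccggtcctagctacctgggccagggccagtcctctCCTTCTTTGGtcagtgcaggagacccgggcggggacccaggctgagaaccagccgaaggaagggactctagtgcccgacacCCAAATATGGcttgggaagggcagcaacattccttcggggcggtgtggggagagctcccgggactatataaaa
Myl9: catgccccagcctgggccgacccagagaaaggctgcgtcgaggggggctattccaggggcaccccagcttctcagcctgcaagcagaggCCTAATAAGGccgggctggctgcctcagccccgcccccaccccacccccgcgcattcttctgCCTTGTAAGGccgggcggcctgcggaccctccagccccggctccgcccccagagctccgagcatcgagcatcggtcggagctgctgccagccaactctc
Des: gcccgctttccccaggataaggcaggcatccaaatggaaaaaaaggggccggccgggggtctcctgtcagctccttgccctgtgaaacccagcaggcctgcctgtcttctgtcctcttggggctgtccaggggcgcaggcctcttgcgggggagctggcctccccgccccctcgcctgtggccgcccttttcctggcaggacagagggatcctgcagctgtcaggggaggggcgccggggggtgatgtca

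All 3 muscle actins were higher in the mutant cultures. Acta2 (chromosome 19, 34241090 to 34255590, GRCm38), the alpha actin of vascular smooth muscle and myofibroblasts, stood at 37.0 FPKM in the WT library and 2576 and 2578 FPKM in BM and BEM. Both mutant libraries thus lay far above WT and next to each other. The ratio to WT was 69.6 (66.1 to 73.4) in BM and 69.7 (66.1 to 73.5) in BEM, from 1420 reads in WT, 92265 in BM and 109324 in BEM. Among all genes Acta2 ranked 1385th in WT, 4th in BM and 3rd in BEM.

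Actg2 (chromosome 6, 83512905 to 83536265), the gamma actin of gut and other visceral smooth muscle, stood at 0.0894 FPKM in the WT library and 88.3 and 93.0 FPKM in BM and BEM. With 3 reads in WT its level there was at the limit of detection, and the ratio of 988 (338 to 4793) in BM and 1040.4 (356 to 5047) in BEM had a wide interval. Acta1 (chromosome 8, 123891769 to 123894751), the alpha actin of skeletal muscle, stood at 0.0647 FPKM in the WT library and 18.0 and 19.6 FPKM in BM and BEM, from 2, 520 and 669 reads. Its ratio to WT was 279 (76.8 to 2307) in BM and 303 (83.5 to 2505) in BEM. As plain FPKM ratios, those of Actg2 and Acta1 were the highest of the 10 genes and the least precise, and the interval of Acta1 overlapped that of Cnn1. With 0.5 FPKM added, the log2 ratio of Acta1 in BM was 5.04, below those of Actg2 (7.24), Acta2 (6.10), Cnn1 (5.63) and Tagln (5.22).

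Actin genes are close copies of each other in their coding parts, so reads can be shared between them. Of the 50-base stretches of the annotated transcripts, 0.326% of those of Acta2, 2.02% of those of Acta1 and 0% of those of Actg2 were found unaltered in another gene. The sources used here do not say how reads with several matches were handled.

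Of the proteins that bind the thin filament, Tagln, Cnn1, Lmod1 and Tpm2 were all higher in the mutant cultures. Tagln (chromosome 9, 45929619 to 45936058), transgelin, an actin cross-linker and early marker of smooth muscle, stood at 26.3 FPKM in the WT library and 1000.1 and 1035 FPKM in BM and BEM. The ratio to WT was 38.1 (35.6 to 40.7) in BM and 39.4 (36.9 to 42.2) in BEM, and its rank among all genes was 2108 in WT, 27 in BM and 26 in BEM. It was the second gene of the 10 in both mutant libraries, after Acta2. The 3′ end of Tagln overlaps Pcsk7, a protease gene on the other strand, whose level was 6.87 FPKM in WT against 13.1 and 14.5 FPKM in the mutants. Of the 50-base stretches of Tagln, 2.98% lie also in Pcsk7 and 55.4% in Gm48529, a gene annotated by GENCODE on the other strand within Tagln. Gm48529 is not among the 47725 genes with values, so its level could not be read. Whether counting used the strand is not stated in the labels, and without strand, reads of Tagln and of its antisense partners cannot be told apart.

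Cnn1 (chromosome 9, 22099216 to 22109630), calponin, a late marker of smooth muscle that binds actin and slows the myosin motor, stood at 0.392 FPKM in the WT library and 43.8 and 43.5 FPKM in BM and BEM. From 20 reads in WT, the ratio was 112 (72.2 to 183) in BM and 111 (71.7 to 182) in BEM. Lmod1 (chromosome 1, 135324807 to 135368065), the smooth muscle leiomodin that nucleates actin filaments, stood at 1.03 FPKM in the WT library and 18.9 and 19.7 FPKM in BM and BEM, with ratios of 18.3 (14.8 to 23.0) and 19.0 (15.4 to 23.9). Calponin was thus a trace in WT and at a moderate level in the mutants, while leiomodin was near 1 FPKM in WT (counting interval 0.829 to 1.27). Tpm2 (chromosome 4, 43514711 to 43523765), beta tropomyosin, which lies along the thin filament, stood at 27.4 FPKM in the WT library and 158 and 158 FPKM in BM and BEM. Its ratio of 5.75 (5.46 to 6.06) in BM and 5.76 (5.47 to 6.06) in BEM was the smallest of the 9 genes above WT.

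The smooth muscle myosin genes were higher as well. Myh11 (chromosome 16, 14194535 to 14291372), the smooth muscle myosin heavy chain and the most restricted marker of the mature cell type, stood at 0.364 FPKM in the WT library and 13.1 and 13.5 FPKM in BM and BEM. Its ratio was 36.1 (27.4 to 48.5) in BM and 37.1 (28.2 to 49.8) in BEM, from 52, 1750 and 2131 reads. Although this ratio was near that of Tagln, Myh11 ranked 4005th among all genes in BM. Of its 50-base stretches, 0.340% lie unaltered in Myh9 or Myh10. Myl9 (chromosome 2, 156775420 to 156781658), a regulatory light chain of smooth muscle and non-muscle myosin and the second gene with a strict CArG box, stood at 18.6 FPKM in the WT library and 303 and 308 FPKM in BM and BEM, with ratios of 16.3 (14.8 to 18.0) and 16.6 (15.1 to 18.2).

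Des (chromosome 1, 75360329 to 75368579), desmin, the intermediate filament protein of all muscle, was slightly lower in the mutant cultures. It stood at 17.7 FPKM in the WT library and 13.1 and 13.3 FPKM in BM and BEM, or 1.35-fold (1.24 to 1.46) lower in BM and 1.33-fold (1.23 to 1.44) lower in BEM, from 1431, 991 and 1187 reads. In WT desmin thus lay at about the level of Myl9, while Actg2, Acta1, Cnn1 and Myh11 were each below 0.4 FPKM. Antisense to the 3′ end of Des lies Gm15179, which shares 4.61% of the 50-base stretches of Des and was at 0.214 FPKM or less in each library.

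**Figure D2:**
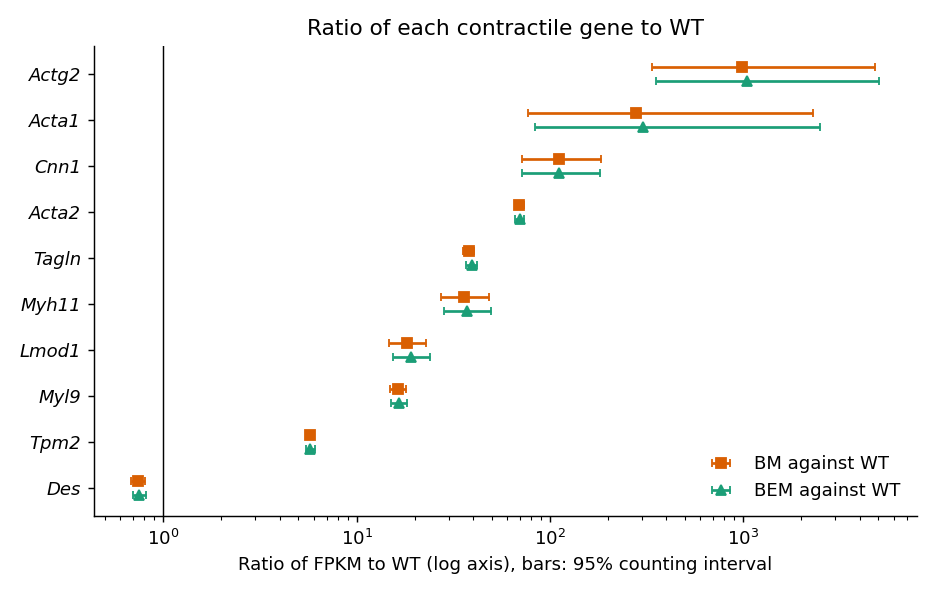
Ratio of FPKM to WT (log axis) for each of the 10 genes in BM and BEM, with the 95% counting interval as bars. Actg2 has the highest ratio, 988 in BM, Tpm2 the lowest above 1, 5.75, and Des lies below 1 in both.

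All 10 genes had a mean of at least 1 FPKM, as did 12875 genes in all, and were set against these at 2-fold on the log2(FPKM + 0.5) scale. In BM 9 of the 10 were higher, against 10.5% of all measured genes, and 0 lower, against 15.3%. In BEM 9 were higher, against 10.7%, and 0 lower, against 15.3%. Nothing is read from these shares, since the same ratios were known when the genes were chosen. Actg2, Acta1, Cnn1 and Myh11 passed the filter through the mutant libraries. The median log2 ratio of the 10 genes was 4.51 in BM and 4.59 in BEM, where that of all measured genes was -0.08 and -0.067. Both comparisons share the 1 WT library. The authors' deposited table marked 8 of the 10 genes as significant in BM against WT and 8 in BEM against WT, all but Tpm2 and Des. It marked 3.26% and 3.44% of all 47725 genes, of which only 12875 were measured, so these shares have another base than those above. For Tpm2 the authors' deposited table gave an FDR of 0.0692 in BM and 0.0682 in BEM.

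The order of the levels differed between WT and the mutant cultures. In WT it ran from Acta2 through Tpm2, Tagln, Myl9, Des, Lmod1, Cnn1, Myh11 and Actg2 to Acta1. The counting intervals of 4 neighbouring pairs overlapped, namely Tpm2 with Tagln, Myl9 with Des, Cnn1 with Myh11, and Actg2 with Acta1. In BM the order was Acta2, Tagln, Myl9, Tpm2, Actg2, Cnn1, Lmod1, Acta1, Des and Myh11, and in BEM it was the same with Myh11 before Des. In both mutant libraries the intervals of Lmod1 and Acta1, and those of Des and Myh11, overlapped. Actg2 thus came after Des in WT and well before it in both mutant libraries.

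BM and BEM were close to each other for every one of the 10 genes. At 2-fold, 0 of 10 were higher in BEM than in BM, against 0.458% of all measured genes, and 0 were lower, against 0.326% (0.784% in either direction). The log2 ratio of BEM to BM ranged from -0.011 for Cnn1 to 0.117 for Acta1, with a median of 0.0315 beside 0.0019 for all measured genes. The counting interval included a ratio of 1 for 8 genes and excluded it for Tagln, 1.04-fold (1.02 to 1.05) higher in BEM, and narrowly for Actg2, 1.05-fold (1.00 to 1.11, the lower bound just above 1) higher. Over all genes with whole reads it excluded 1 for 13% in BEM against BM, but for 81.2% in BM against WT and 81.6% in BEM against WT. The 10 genes were thus close between BM and BEM, as most measured genes were, and nothing particular to them is read from it.

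Most of the 10 genes belong to families whose other members are used by many cells, and the share of the contractile form was higher in the mutant cultures in all of them but desmin with vimentin. Of the summed FPKM of 6 actin genes, Acta2, Actg2 and Acta1 together made up 2.94% in WT, 58.2% in BM and 58.7% in BEM. The cytoplasmic actins stayed closer to WT. Actb was at 415 FPKM in the WT library and 846 and 835 FPKM in BM and BEM, and Actg1 was 1.33-fold (1.31 to 1.34) higher in BM and 1.30-fold (1.29 to 1.32) higher in BEM. Cardiac actin, Actc1, had 0 reads in WT, 6 in BM and 3 in BEM. The actin family as a whole was 3.64-fold higher in BM and 3.63-fold higher in BEM than in WT, and most of that difference was Acta2.

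Tagln was 23.9% of the 3 transgelins in WT, 86.2% in BM and 86.6% in BEM, with Tagln2, the form of other cells, at 83.1 FPKM in the WT library and 159.9 and 159.7 FPKM in BM and BEM. Myl9 was 9.97% of the 3 regulatory light chains in WT and 55.7% and 56.2% in BM and BEM. Of the other light chains, Myl12a was 2.18-fold higher in both mutant cultures, while Myl12b was 1.90-fold (1.82 to 1.99) lower in BM and 1.95-fold (1.87 to 2.04) lower in BEM. Lmod1 made up 5.34% of the leiomodin and tropomodulin sum in WT and 41.3% and 42.5% in BM and BEM, where the rest was almost all Tmod3, which caps filaments in many cell types.

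In other families the contractile form stayed a minor part. Myh11 made up 0.356% of 4 class II myosin heavy chains in WT, 4.55% in BM and 4.75% in BEM. The non-muscle Myh9 was at 38.9 FPKM in the WT library and 238 and 234 FPKM in BM and BEM, several times higher in the mutants. Its relative Myh10 was 1.70-fold (1.66 to 1.75) lower in BM and 1.69-fold (1.65 to 1.73) lower in BEM, so Myh10 was the most abundant of the 4 in WT and Myh9 in the mutant cultures. Cnn1 made up 0.260% of the 3 calponins in WT and 10.3% in BM and in BEM, below Cnn2, a calponin of many cell types, which was 4.10-fold (3.95 to 4.26) higher in BM. Tpm2 was 7.88% of the 4 tropomyosins in WT and 19.3% and 19.2% in BM and BEM, while Tpm1 was 2.41-fold (2.37 to 2.46) and Tpm4 2.10-fold (2.04 to 2.15) higher in BM. Vimentin, the intermediate filament protein of mesenchymal cells and macrophages, was at 223 FPKM in the WT library and 935 and 919 FPKM in BM and BEM. Desmin was 7.35% of the sum of both in WT and 1.38% and 1.42% in BM and BEM.

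**Figure D3:**
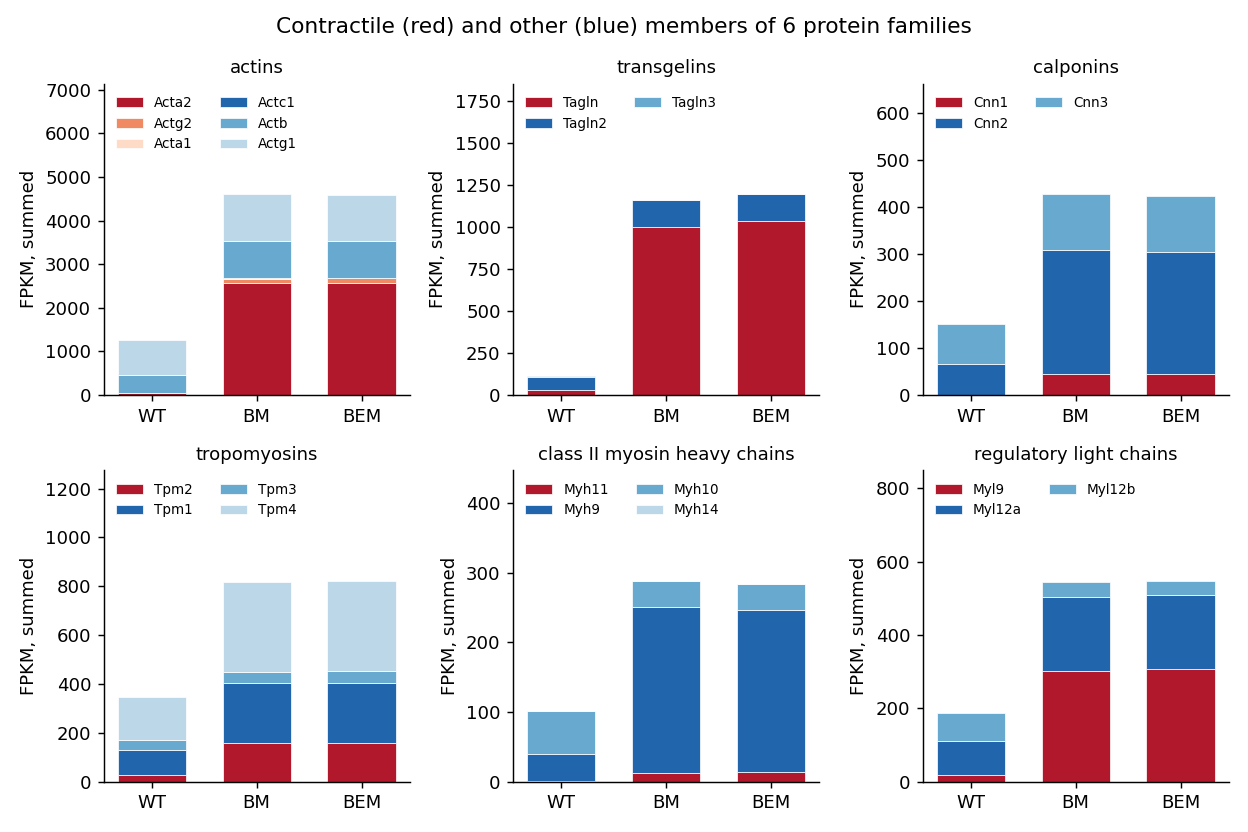
Summed FPKM of 6 protein families in the 3 libraries (1 bar each, linear axes that start at 0), with the smooth muscle genes in red shades and the other genes in blue shades. Acta2 makes up 55.9%, Tagln 86.2% and Myl9 55.7% of the family in BM, and Myh11 and Cnn1 stay minor beside Myh9 and Cnn2.

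Further genes of the contractile apparatus, its calcium handling and its dense bodies differed from WT in both directions. Of 30 such genes 23 were measured, with median log2 ratios of 1.24 in BM and 1.12 in BEM. Of the 23, 15 were at least 2-fold higher and 4 lower in BM, and 14 higher and 5 lower in BEM. Among all measured genes 10.5% were higher and 15.3% lower in BM, and 10.7% and 15.3% in BEM. Fhl1, a muscle LIM protein, was 9.97-fold (8.87 to 11.2) higher in BM and 10.3-fold (9.17 to 11.6) in BEM, and Nexn, the actin-binding nexilin, 9.56-fold (7.79 to 11.9) and 10.4-fold (8.47 to 12.8) higher. Pdlim3, a PDZ and LIM protein of the actin cytoskeleton, was the other way round, with 744 reads in WT, 15 in BM and 24 in BEM. It was 46.3-fold (27.9 to 83.1) lower in BM and 34.2-fold (22.8 to 53.8) lower in BEM. Ppp1r12b, a myosin phosphatase subunit, was 6.81-fold (6.26 to 7.43) and 6.97-fold (6.44 to 7.56) lower.

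Some genes of the same list are named here after their values were seen. Mylk, the kinase that phosphorylates the regulatory light chain, was 2.53-fold (2.21 to 2.90) higher in BM and 2.46-fold (2.15 to 2.81) higher in BEM. Smtn, smoothelin, a marker of contractile smooth muscle, was at 41.9 FPKM in the WT library and 17.6 and 16.4 FPKM in BM and BEM, or 2.37-fold (2.24 to 2.52) and 2.55-fold (2.41 to 2.70) lower. Pln, phospholamban, which restrains calcium uptake, had 2 reads in WT and 0 in both mutant libraries, and Kcnmb1, the smooth muscle subunit of a potassium channel, stayed at or below 0.411 FPKM. Smoothelin was among the 4 genes of the list lower in BM and the 5 lower in BEM. Of the 23 measured, 15 were higher in BM and 14 in BEM, so the genes picked here do not stand for the list.

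Srf was at 13.0 FPKM in the WT library and 24.3 and 24.0 FPKM in BM and BEM, or 1.87-fold (1.73 to 2.01) and 1.84-fold (1.71 to 1.97) higher in the mutants. Myocd, which encodes myocardin, had 7, 15 and 24 reads in the WT, BM and BEM libraries, or 0.157 FPKM at most. Mkl1 and Mkl2, which encode the MRTF proteins, were 1.71-fold (1.61 to 1.83) and 1.11-fold (1.03 to 1.19) lower in BM. Klf4, which can repress smooth muscle genes, was 3.01-fold (2.72 to 3.34) higher in BM and 2.96-fold (2.68 to 3.27) higher in BEM. These differences from WT were smaller than those of 9 of the 10 contractile genes. Since the 10 were chosen with their ratios known, nothing is read from that.

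Of the TGF-beta ligands, which induce Acta2 in myofibroblasts, Tgfb3 was 2.89-fold (2.72 to 3.07) higher in BM, Tgfb2 was 2.39-fold (2.20 to 2.61) lower, and Tgfb1 was at a ratio of 1.03 (0.977 to 1.10), within counting error of WT. Smad3, their signal transducer, was 2.90-fold (2.74 to 3.06) lower in BM, and the transcription factor gene Gata6 3.75-fold (3.41 to 4.14) lower. Of 18 measured genes of SRF and TGF-beta regulation, 2 were higher and 4 lower in BM and 2 higher and 5 lower in BEM. The shares over all measured genes were 10.5% higher and 15.3% lower in BM, and 10.7% and 15.3% in BEM. The median log2 ratios of the 18, -0.32 and -0.34, became 0.33 and 0.37 when genes with a mean under 10 FPKM were left out.

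Of 12 measured receptors that act on smooth muscle, 2 were higher and 1 lower in each mutant culture. Over all measured genes 10.5% were higher and 15.3% lower in BM, and 10.7% and 15.3% in BEM. Nothing is read from these small counts. Tbxa2r, the thromboxane receptor, was at 0.474 FPKM in the WT library and 15.4 and 13.8 FPKM in BM and BEM, or 32.5-fold (20.4 to 55.3) and 29.2-fold (18.3 to 49.7) higher. Adra1d, an alpha adrenergic receptor, was 31.3-fold (19.8 to 52.3) higher in BM and 26.5-fold (16.8 to 44.4) higher in BEM, from 19 reads in WT. The endothelin receptor Ednrb was 4.44-fold (3.73 to 5.32) lower in BM and 4.33-fold (3.68 to 5.11) lower in BEM.

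Markers of other cell types were read beside the 10 genes, and their part in the differences was not tested. Of 13 pericyte and mural cell markers 9 were measured, 3 of them higher and 3 lower in BM and 5 higher and 3 lower in BEM. Over all measured genes 10.5% were higher and 15.3% lower in BM, and 10.7% and 15.3% in BEM. The summed level of the 13 markers was 146.3, 245.1 and 242.6 FPKM. Cspg4, the NG2 proteoglycan gene, was 14.7-fold (13.7 to 15.7) higher in BM, and Pdgfrb, a platelet-derived growth factor receptor, 4.52-fold (4.35 to 4.70) higher. By contrast Rgs5, a marker of pericytes, was 17.9-fold (11.8 to 28.5) lower in BM and 22.1-fold (14.4 to 35.7) lower in BEM, and the Notch receptor gene Notch3 2.20-fold (2.09 to 2.33) lower in BM. Higd1b had 0 reads in WT and BM and 4 in BEM.

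All 16 fibroblast and myofibroblast genes were measured, of which 9 were higher and 1 lower in each mutant culture. Over all measured genes 10.5% were higher and 15.3% lower in BM, and 10.7% and 15.3% in BEM. The 16 genes had median log2 ratios of 1.29 and 1.25 and summed levels of 3814, 8677 and 8520 FPKM. Thy1, a surface protein of fibroblasts, was 15.5-fold (14.7 to 16.3) higher in BM and Tnc, the matrix protein tenascin C, 14.5-fold (14.1 to 14.8) higher. Of 9 genes of gut mesenchyme, where Actg2 is known to be high, 3 were measured. Of the 3, 2 were lower in both mutant cultures, against 15.3% of all measured genes in each. Of the 9 genes, 4 reached 1 FPKM in WT, but only 1 did in BM and 1 in BEM. The 2 lower genes thus passed the filter through the WT library, and nothing is read from the count. The 2 lower genes were Foxf1, a main transcription factor of that tissue, and Barx1, with 170, 9 and 10 reads. Foxf1 was 12.5-fold (8.35 to 19.3) lower in BM and 17.4-fold (11.3 to 28.2) lower in BEM. Pdgfra, the third measured gene, was lower as well, at a log2 ratio of -0.96 in BM and -0.96 in BEM. The direction of all 3 was opposite to that of Actg2, from which nothing is read.

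Striated muscle genes were low in all cultures even though Acta1 was higher in the mutants. Of 39 sarcomere and muscle determination genes 3 were measured, and the summed level was 17.0, 6.92 and 7.15 FPKM, with 12, 8 and 12 of them at 0 reads. Ckm, Myl2, Mybpc1 and Myod1, named after their values were seen, had 0 reads in each library, which allows up to 3 reads. The slow troponin gene Tnnt1 was 9.76-fold (5.52 to 18.8) lower in BM and the fast troponin gene Tnnt3 11.1-fold (6.97 to 18.9) lower. Tnnc1, a troponin of slow and cardiac muscle, was 3.39-fold (1.74 to 7.13) higher.

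Macrophage genes were also far higher in the mutant cultures. Of 12 markers 11 were measured, with median log2 ratios of 5.56 and 5.68. All 11 were higher in each mutant culture, against 10.5% of all measured genes in BM and 10.7% in BEM. Only 2 of the 12 reached 1 FPKM in WT, while all 12 did in BM and in BEM. Most thus passed the filter through the mutant libraries, and nothing is read from the count. The summed level of the 12 was 13.3 FPKM in WT against 1877 FPKM in BM and 1927 FPKM in BEM. C1qa and Itgam had 0 reads in WT, and C1qb, Tyrobp and Ptprc had 1 read each. Endothelial markers were low throughout, with 2 of 10 measured and a summed level of 6.65, 4.14 and 4.28 FPKM. Cldn5 had 0 reads in WT and BM and 1 in BEM.

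Of the 14 hair cell markers 4 were measured, 1 of them higher and 1 lower in each mutant culture, with median log2 ratios of -0.45 and -0.41. Over all measured genes 10.5% were higher and 15.3% lower in BM, and 10.7% and 15.3% in BEM. Atoh1, the factor that starts hair cell formation, was at 270.2 FPKM in the WT library and 236 and 241 FPKM in BM and BEM, and Myo7a, a hair cell myosin also found elsewhere, was 13.9-fold (11.6 to 16.8) higher in BM, while Espn, an actin bundler of hair bundles, was 3.67-fold (2.92 to 4.66) lower. Pou4f3 had 1 read in each library, and Pvalb and Tmc1 had 0 in each. Most defining markers of the labelled cell type were thus near 0 in all cultures.

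**Figure D4:**
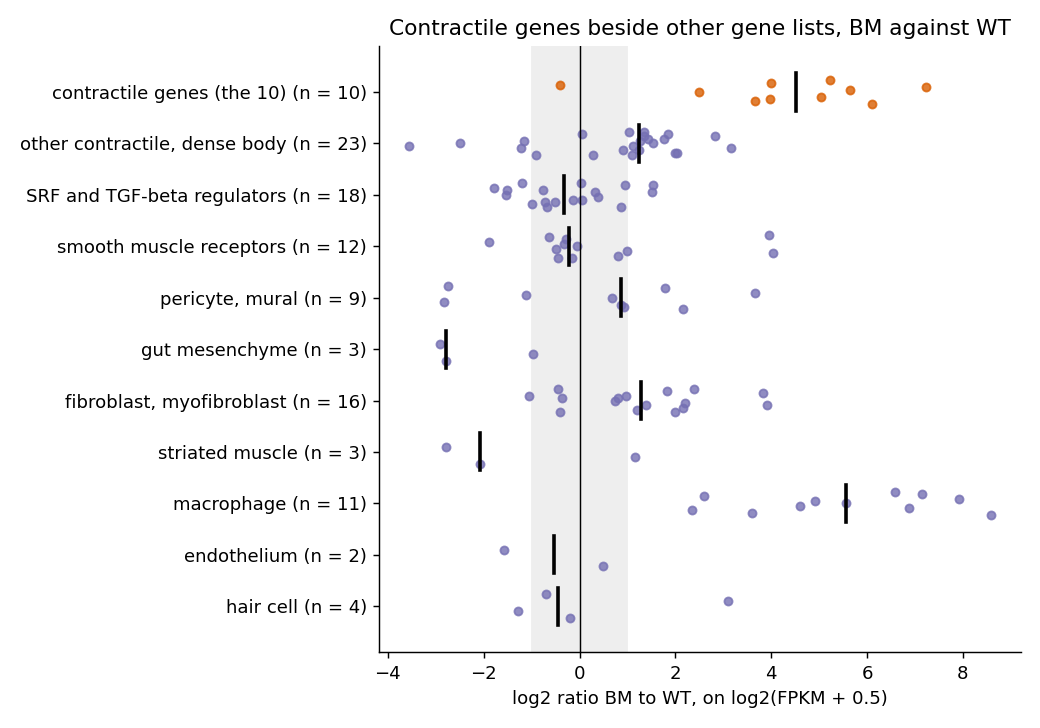
Log2 ratio of BM to WT on the log2(FPKM + 0.5) scale for the measured genes of each list, with a black bar at the list's median and grey shading below a 2-fold difference. The 10 contractile genes have a median of 4.51, beside 5.56 for macrophage markers and 1.29 for fibroblast and myofibroblast genes.

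The genes most like Acta2 in their pair of ratios to WT were found as the nearest by distance on the log2(FPKM + 0.5) scale, a description over 3 libraries. The search took in 8357 protein-coding genes with at least 5 FPKM in the highest library, predicted symbols left out. On this scale 15 had a higher ratio than Acta2 in BM and 15 in BEM. Among the nearest were Wisp2, C1qtnf3, Laptm5, Lilrb4a, Lrrc15, Cnn1 and Adgre1, at distances of 0.066 to 0.689. Rank and likeness both depend on the 0.5 FPKM added, since these genes had 3 to 20 reads in WT. Their plain FPKM ratios of BM to WT were all higher than the 69.6 of Acta2, from 112 for Cnn1 to 675 for Laptm5. Laptm5, Lilrb4a and Adgre1 are genes of leukocytes and macrophages. Lrrc15, a surface protein of activated fibroblasts, was at 0.0874 FPKM in the WT library and 48.6 and 49.0 FPKM in BM and BEM. Cnn1 was the nearest of the other 9 contractile genes, at a distance of 0.671.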

How the data were processed

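RNA was measured in 3 mouse cultures with 1 library each. Oligo-dT selected the messenger RNA and libraries were made with an Illumina kit, per the labels' protocols. The deposited tables held FPKM per gene and library and, for each pair, the authors' log2 ratio, p-value and FDR, per the file headers. The submitters' processing notes name TopHat2, HTSeq, edgeR and GRCm38 without versions or roles. The sources used here do not state how the authors obtained a p-value with 1 library a line. Each table had 47725 genes, and 4 further lines were not analysed here.

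Each library's total was recovered as the commonest read total that a single read would imply from a gene's FPKM and GENCODE exon length, which genes of 1 read give exactly. Reads were then whole to within 0.001 for 12867 of 12875 measured genes (mean of 1 FPKM or more), 72.1% of these 12875 at the GENCODE length. For the others, Acta2, Acta1, Tagln, Cnn1 and Myh11 among them, the nearest length from 100 to 30000 bases that made all 3 values whole was used. This sets the intervals but not the ratios. The procedure was also run on simulated data built with the lengths chosen here, which cannot check that choice of length.

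Log2 ratios used a pseudocount of 0.5 FPKM, which understates the change of low genes, and no further scaling. Folds of single genes are ratios of FPKM with no pseudocount. A symbol with several lines was read from the most abundant. The alternatives were 2 other scalings (median-of-ratios, upper quartile), pseudocounts of 0.05 and 5, another filter (none, or a mean of 10 FPKM), a 4-fold threshold and the authors' ratio. The genes and lists were chosen with earlier results of these data known. Genes named are the 10, their paralogs, regulators, markers of mural, macrophage, endothelial and hair cells, up to 4 genes of each other list with the largest mean ratio, and those of the 8 nearest to Acta2 that are reported here. Mylk, Smtn, Pln, Kcnmb1, Ckm, Myl2, Mybpc1 and Myod1 fall outside this rule and were named after their values were seen. Python 3.11.15, numpy 2.4.6, pandas 2.3.3 and scipy 1.17.1 were used. Promoter sequences came from RefSeq on GRCm38.p6.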

Additional observations from a re-analysis of the deposited data

How the results depend on the processing

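The count of contractile genes 2-fold from WT was 9 in BM and in BEM under every scaling, pseudocount, threshold and ratio tried, and 8 with a mean of at least 10 FPKM, where Myh11 was left out by the filter. Between BEM and BM it was 0 under each of them. The median log2 ratio to WT moved with the pseudocount, to 5.12 in BM and 5.17 in BEM with 0.05 and to 2.75 in each with 5. It was 5.04 and 5.15 with a mean of at least 10 FPKM, and 5.04 and 5.085 with the authors' deposited ratios. With the 5 genes whose reads were whole at the annotated length, a choice made after seeing the data, it was 3.66 and 3.72. Filter and length change which genes enter the median, and the pseudocount shrinks the ratios of genes near 0 in WT. For the authors' ratios the cause was not tested. Of 150 single log2 ratios of the 10 genes under another setting, 37 moved beyond the counting interval and 0 changed sign when called. Scaling moved ratios to WT by at most 0.097. For the striated muscle list the median log2 ratio of -2.08 in BM and -2.21 in BEM became 0 with no filter, when 36 further genes near 0 entered. No paired analysis was possible because each line has 1 library, and for the same reason no replicate could be left out. Depth limits the ratios of Actg2 and Acta1, with 3 and 2 reads in WT.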
